A study of Mus musculus with 12 samples.

Results

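Heat shock chaperones are the 9 genes Hspa1a, Hspa1b, Hspa8, Hsph1, Dnajb1, Hsp90aa1, Hsp90ab1, Hspd1 and Hspe1, taken by symbol from the 31053 genes listed in every matrix. Their transcripts were counted in myeloid cells of whole mouse brain taken apart in 4 ways, to ask which steps of the preparation change what is read from microglia, the resident macrophages of the brain. Each of 12 male C57BL/6J mice at postnatal day 90 gave 1 library, and no animals were pooled. In DNC-NONE (labelled Dounce_NO) the brain was minced and homogenized on ice in a Dounce, a glass pestle and tube, with no inhibitors. DNC-INHIB (Dounce_IN) was prepared likewise with inhibitors, ENZ-NONE (Miltenyi_NO) by warm enzymatic digestion with no inhibitors, and ENZ-INHIB (Miltenyi_IN) by the same digestion with inhibitors. The inhibitors were the transcription blockers actinomycin D and triptolide from perfusion onwards, and from dissection on also anisomycin, which blocks translation. Live cells positive for the surface proteins CD45 and CD11b were sorted, so that each library holds myeloid cells of several kinds rather than microglia alone. Each group has 3 libraries. Of the 2 batches named in the labels, batch 1 took in ENZ-NONE replicates 4 and 5, ENZ-INHIB replicate 1, DNC-INHIB replicate 4 and DNC-NONE replicates 1 and 2, and batch 2 the remaining 6 libraries.

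Chaperones bind unfolded proteins and help them to fold or to be degraded. HSP70 proteins work with J-domain partners, which bring them clients, and with exchange factors of the HSP110 group, and they pass some clients on to HSP90. Heat, protein-damaging agents and other stresses release the transcription factor HSF1, which binds inverted repeats of the letters GAA upstream of its targets and raises the inducible members strongly, while the constitutive members are made at all times. The mitochondrial chaperonin HSP60 and its lid HSP10 fold proteins inside that organelle.

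The upstream sequences of the inducible HSP70 pair are shown because these are the members that stood farthest above the other groups, and that of Hspe1 because it holds a denser run of the repeat. All were taken from RefSeq on GRCm38.p6, the build of the counts, and each is the 250 bases before the start, 5' to 3' on the strand of the gene. Hspa1a is at chr17:34972157-34972406 and Hspa1b at chr17:34959239-34959488, both on the minus strand, and Hspe1 is at chr1:55087898-55088147 on the plus strand. Capitals mark matches to GAANNTTC or TTCNNGAA, in which N is any base and which read the same on both strands.
Hspa1a: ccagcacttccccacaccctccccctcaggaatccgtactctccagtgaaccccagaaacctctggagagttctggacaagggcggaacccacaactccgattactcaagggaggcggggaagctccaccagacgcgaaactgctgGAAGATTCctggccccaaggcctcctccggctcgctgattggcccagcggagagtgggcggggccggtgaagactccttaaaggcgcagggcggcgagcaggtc
Hspa1b: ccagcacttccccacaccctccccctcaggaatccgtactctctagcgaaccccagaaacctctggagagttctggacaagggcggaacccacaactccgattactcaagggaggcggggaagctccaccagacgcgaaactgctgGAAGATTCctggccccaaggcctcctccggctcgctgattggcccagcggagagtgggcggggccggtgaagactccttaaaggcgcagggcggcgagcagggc
Hspe1: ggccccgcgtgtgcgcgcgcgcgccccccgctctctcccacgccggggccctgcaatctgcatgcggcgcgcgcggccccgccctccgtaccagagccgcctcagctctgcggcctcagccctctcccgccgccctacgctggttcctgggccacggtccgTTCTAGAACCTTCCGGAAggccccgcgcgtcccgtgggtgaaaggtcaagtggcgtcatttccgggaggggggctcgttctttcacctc

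The Hspa1a and Hspa1b sequences differed at 3 of these 250 bases, and each held 1 match, beginning 104 bases before the start. Hspe1 held 3 overlapping matches, beginning 89, 84 and 79 bases before its start. That stretch also lies upstream of an Hspd1 start on the other strand, while the promoter entry of another Hspd1 start held no match. One such match or more was found in 15.1% of 32851 promoters of 300 bases (250 before and 50 after the start), and a longer match of 3 alternating units, of which Hspe1 held 2 that overlap, in 0.603%. Of the 9 genes, 6 had a promoter entry, and neither Dnajb1 entry held a match. Each Hsph1 entry held 3 matches in its 300 bases, with 1 longer match. A match describes letters only. Both HSP70 genes lie on chromosome 17 of GRCm38, Hspa1a at 34969190 to 34972156 and Hspa1b at 34956436 to 34959238, with 9951 bases between them. Along the whole transcript 47.5% of 98-base windows of Hspa1a also occurred in Hspa1b, but the last of these ended 856 bases before the 3' end, and within the last 500 bases, the part a 3' kit reads, no window of either gene occurred in another gene. Reads of the pair can therefore be shared only where they fall outside that end, and the sum of both genes is given beside each. Hspa1a overlaps Gm20481 on the other strand, and the sources used here do not say how reads antisense to a gene were treated.

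The 12 libraries held 18826 kept cells of 28426 deposited barcodes, between 853 and 2185 per library, with 1059783 to 3233159 unique molecular identifiers (UMIs, each standing for 1 captured molecule) in kept cells and a median of 1153 to 1572 UMIs per cell. The summed microglia markers stood at 34428 to 39575 CPM (UMIs of the genes for each 1000000 UMIs of the library) in all libraries. Neuron markers stood at 0 to 8.49 CPM, astrocyte markers at 147 to 246 CPM and neutrophil markers at 0 to 2088 CPM. Of the deposited barcodes, 503 occurred in more than 1 library, with 2 to 16 shared by any pair of libraries. Kept cells had at least 500 genes and 1000 UMIs, and CPM is taken over all UMIs in the kept cells of a library, without scaling by length. CPM values of different genes are not compared.

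Hspa1a and Hspa1b, which encode the stress-inducible HSP70, were high only in the digestions without inhibitors. Summed, they averaged 855 CPM ± 369 (SD, n = 3) in ENZ-NONE. The averages were 6.82 ± 3.21 for ENZ-INHIB, 13.2 ± 6.98 for DNC-INHIB and 4.09 ± 3.08 for DNC-NONE. The ENZ-NONE libraries held 5893 UMIs of the pair in 4436 cells, and the other 9 libraries together held 176 in 14390 cells.

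In ENZ-NONE the summed pair stood at 1081 CPM in replicate 4, 429 in replicate 5 and 1055 in replicate 6. It stood at 7.60, 1.89 and 2.78 CPM in DNC-NONE replicates 1, 2 and 3, and at 16.2, 18.2 and 5.26 in DNC-INHIB replicates 4, 5 and 6. ENZ-INHIB replicates 1, 2 and 3 gave 3.23, 9.42 and 7.80 CPM. The lowest ENZ-NONE library, replicate 5, lay far above the highest of the others, DNC-INHIB replicate 5, and the 3 remaining groups overlapped one another. Within batch 1 the ENZ-NONE mean was 755 CPM against 3.23 to 16.2 for the other groups' means, and within batch 2 it was 1055 CPM in 1 library against 2.78 to 11.8.

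The summed pair was 183-fold higher in ENZ-NONE than in DNC-NONE (log2 fold change 7.52, SE 0.47, adjusted p 5.33e-08 by edgeR's quasi-likelihood test with Benjamini-Hochberg adjustment over all genes). It was 6.93 on the log2 scale above ENZ-INHIB (SE 0.42, adjusted p 2.05e-08) and 6.12 above DNC-INHIB (SE 0.39, adjusted p 8.14e-08). Without DNC-NONE replicate 1, which holds 19 of the 26 UMIs of that group, the log2 fold change from DNC-NONE became 8.47. Levels ordered the groups as ENZ-NONE, DNC-INHIB, ENZ-INHIB and DNC-NONE, and no neighbours below ENZ-NONE passed the test. For the summed pair DNC-NONE vs DNC-INHIB gave a log2 fold change of -1.40 with SE 0.67 (adjusted p 0.999), ENZ-INHIB vs DNC-INHIB gave -0.81 with SE 0.57 (adjusted p 0.752), and ENZ-INHIB vs DNC-NONE gave 0.59 with SE 0.75 (adjusted p 0.864). With every gene tested and no filter on low counts, the first of these 3 passed the threshold at -1.41 (adjusted p 0.000784).

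Taken apart, both genes had the same pattern. Hspa1a stood at 999, 381 and 961 CPM in ENZ-NONE replicates 4, 5 and 6, and between 0.944 and 16.0 CPM in the other 9 libraries, with log2 fold changes of 7.63 vs DNC-NONE, 6.14 vs DNC-INHIB and 7.08 vs ENZ-INHIB. Without DNC-NONE replicate 1 the first of these became 9.12. Hspa1b stood at 82.2, 47.5 and 94.5 CPM in ENZ-NONE replicates 4, 5 and 6, with log2 fold changes of 6.62, 5.91 and 5.89 in the same order, and 6.61 vs DNC-INHIB without DNC-INHIB replicate 5. Outside ENZ-NONE it had 0 to 6 UMIs per library. The library at 0, ENZ-INHIB replicate 1, allows a level of up to 1.62 CPM (3 UMIs). Hspa1b made up 7.60% of the pair's UMIs in ENZ-NONE replicate 4 (95% exact binomial interval 6.56 to 8.75), 11.1% in replicate 5 (8.80 to 13.7) and 8.96% in replicate 6 (7.94 to 10.1). This split is of UMIs as counted at the 3' ends. Intervals here cover counting error only.

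**Figure D1:**
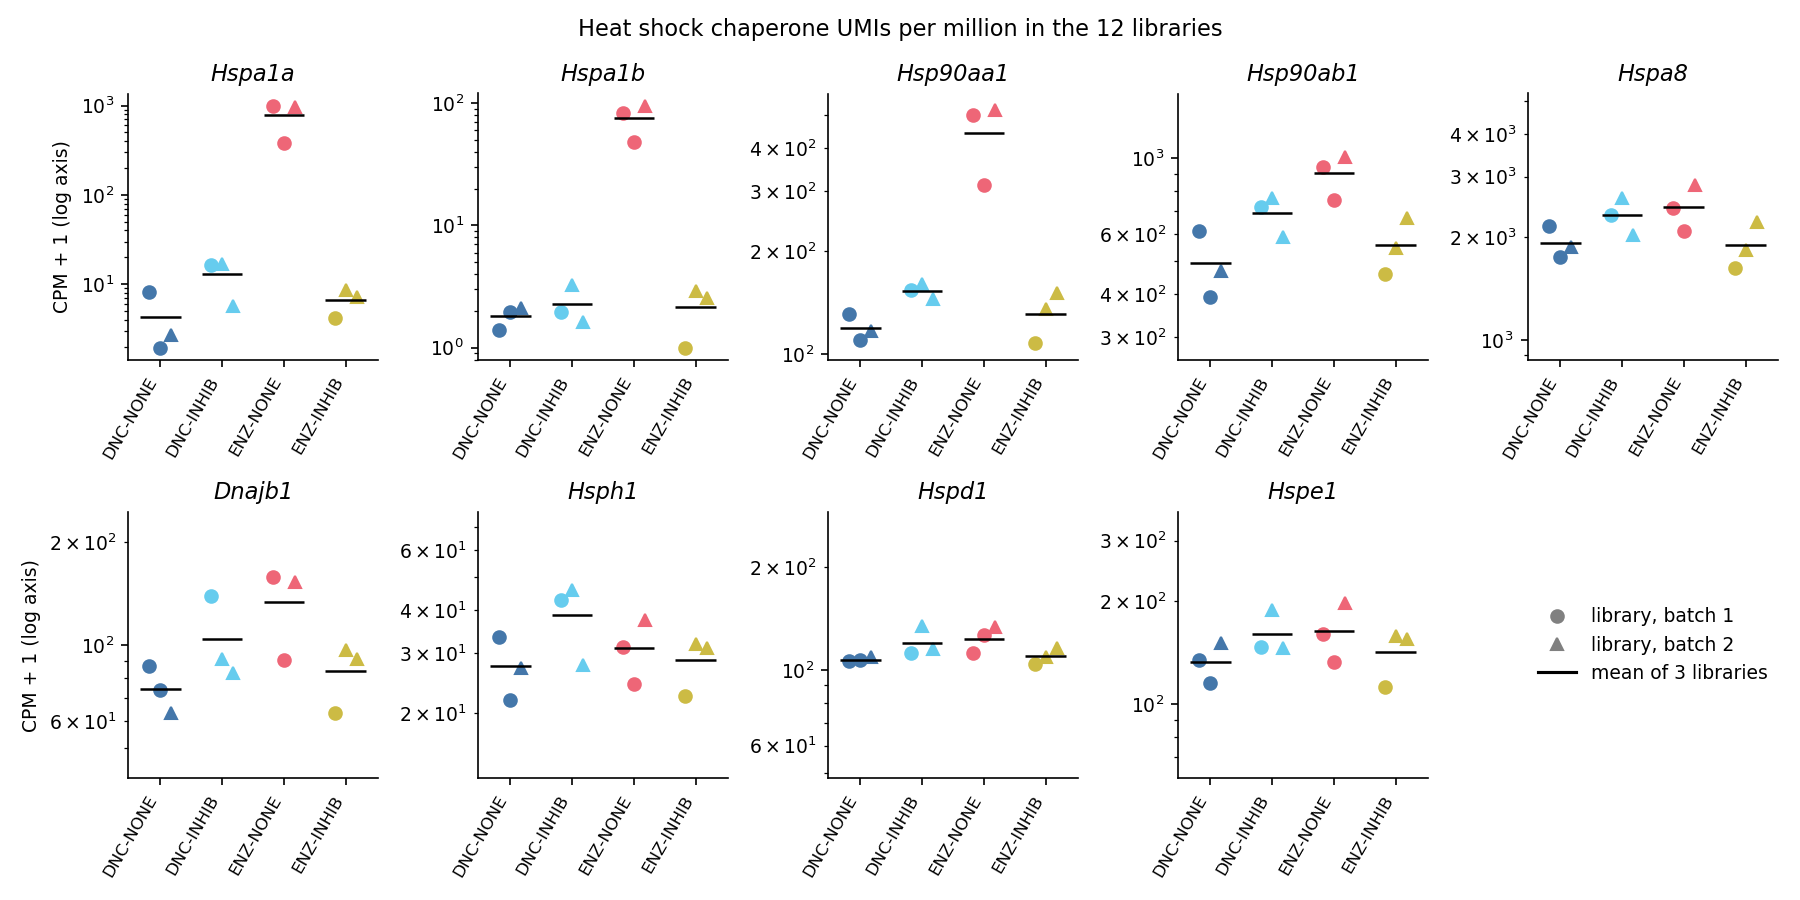
Level of each chaperone gene in the 12 libraries, in CPM plus 1 on a log axis that differs between panels, with circles for batch 1, triangles for batch 2 and a bar at the mean of 3 libraries. Hspa1a, Hspa1b and Hsp90aa1 in the 3 ENZ-NONE libraries lie above all other 9 libraries, and Hspa8, Hsph1 and Hspe1 in ENZ-NONE overlap each other group, as Hspd1 does except for DNC-NONE.

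Hspa8, the constitutive HSP70 of the cytosol, was detected in most cells of every library, with group means of 81.8% to 88.3% of cells holding a UMI after each cell was thinned to 1000 UMIs. It stood at 2424, 2074 and 2836 CPM in ENZ-NONE replicates 4, 5 and 6, at 2145, 1744 and 1861 in DNC-NONE replicates 1, 2 and 3, and at 2318, 2601 and 2030 in DNC-INHIB replicates 4, 5 and 6. ENZ-INHIB replicates 1, 2 and 3 held 1616, 1832 and 2216 CPM. ENZ-NONE overlapped each of the other groups. Relative to ENZ-INHIB, DNC-NONE and DNC-INHIB the log2 fold changes of Hspa8 were 0.41, 0.40 and 0.12 (SE 0.14 each, adjusted p 0.618, 0.352 and 0.840), and none passed. In the last 500 bases of its transcripts 48.1% of windows also occurred in other annotated genes. The authors counted against a filtered annotation, and whether those genes were in it was not checked, here or for the genes below. A loss of reads is thus possible but not shown.

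Hsph1, an HSP110 protein that exchanges nucleotide on HSP70, had 36 to 99 UMIs per ENZ-NONE library. Its levels there were 30.3, 23.4 and 36.3 CPM in replicates 4, 5 and 6, and the group averages elsewhere were 27.5 ± 5.17 (SD, n = 3) for ENZ-INHIB, 37.8 ± 9.79 for DNC-INHIB and 26.4 ± 5.84 for DNC-NONE. All 4 groups overlapped. Its log2 fold changes in ENZ-NONE were 0.21, -0.23 and 0.18 vs DNC-NONE, DNC-INHIB and ENZ-INHIB (SE 0.21 to 0.23, adjusted p 0.795 to 0.993).

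Dnajb1, the J-domain partner that brings clients to HSP70, stood at 157, 89.2 and 152 CPM in ENZ-NONE replicates 4, 5 and 6. It stood at 86.0, 72.7 and 62.2 CPM in DNC-NONE replicates 1, 2 and 3, at 138, 90.1 and 82.0 in DNC-INHIB replicates 4, 5 and 6, and in ENZ-INHIB from 62.5 to 95.7. ENZ-NONE replicate 5 lay among the libraries of DNC-INHIB and ENZ-INHIB, and DNC-INHIB replicate 4 was the highest library outside ENZ-NONE. Relative to DNC-NONE, DNC-INHIB and ENZ-INHIB the log2 fold changes of Dnajb1 were 0.90, 0.44 and 0.72 (SE 0.21 to 0.22, adjusted p 0.0943, 0.524 and 0.386), so that none passed. Without ENZ-NONE replicate 5 Dnajb1 passed vs DNC-NONE (log2 fold change 1.11, adjusted p 0.0107) and vs ENZ-INHIB (0.93, adjusted p 0.0345). It also passed in both with no filter on low counts, a setting that called 206 and 141 of 16399 genes in these comparisons. Dnajb1 passed vs DNC-NONE with all deposited barcodes too (0.96, adjusted p 0.0436), and with cells thinned to 1000 UMIs (1.03, adjusted p 0.0221).

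Hsp90aa1, the stress-inducible cytosolic HSP90, rose in ENZ-NONE against every other group. It stood at 500, 311 and 515 CPM in ENZ-NONE replicates 4, 5 and 6, with averages of 130 ± 21.8 (SD, n = 3) for ENZ-INHIB, 152 ± 7.95 for DNC-INHIB and 118 ± 10.9 for DNC-NONE. The other 9 libraries spanned 107 to 160 CPM and all lay below the 3 ENZ-NONE libraries. On the log2 scale it was 1.94 above DNC-NONE (SE 0.17, adjusted p 2.31e-06), 1.59 above DNC-INHIB (SE 0.16, adjusted p 1.44e-05) and 1.79 above ENZ-INHIB (SE 0.17, adjusted p 4.52e-06), which is 3.84, 3.01 and 3.47 times the level of those groups. In the last 500 bases 30.8% of windows occurred also in 2 other annotated genes.

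Hsp90ab1, the constitutive cytosolic HSP90, stood at 940, 755 and 1009 CPM in ENZ-NONE replicates 4, 5 and 6. The DNC-NONE replicates 1, 2 and 3 held 613, 393 and 468 CPM, the DNC-INHIB replicates 4, 5 and 6 held 717, 763 and 589, and the ENZ-INHIB replicates 1, 2 and 3 held 459, 545 and 667. ENZ-NONE lay above DNC-NONE and ENZ-INHIB and overlapped DNC-INHIB. Hsp90ab1 rose 1.88-fold vs DNC-NONE (log2 fold change 0.91, SE 0.16, adjusted p 0.00844), but not past the threshold without DNC-NONE replicate 2 (0.78, adjusted p 0.0743) or in a robust fit added after the data were seen (adjusted p 0.140). Hsp90ab1 did not pass relative to DNC-INHIB (log2 fold change 0.43, SE 0.16, adjusted p 0.36) or ENZ-INHIB (0.73, SE 0.16, adjusted p 0.0628), and the last passed under other settings, among them DESeq2 (adjusted p 0.00165) and batch as a covariate (adjusted p 0.0194).

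Hspd1 and Hspe1, the mitochondrial chaperonin HSP60 and its lid HSP10, lie head to head on chromosome 1 and overlap by 112 bases on opposite strands. Hspd1 stood at 111, 125 and 132 CPM in ENZ-NONE replicates 4, 5 and 6 and between 103 and 133 CPM in the other 9 libraries. Hspe1 stood at 159, 132 and 196 CPM in ENZ-NONE and between 111 and 187 CPM in the other 9. Hspd1 in ENZ-NONE lay above the 3 DNC-NONE libraries (105 to 108 CPM) and within the range of the other groups, Hspe1 lay above it in replicate 6 only, and none of their 6 log2 fold changes in ENZ-NONE passed. Those of Hspd1 were 0.25, 0.08 and 0.20 vs DNC-NONE, DNC-INHIB and ENZ-INHIB (SE 0.10 to 0.11, adjusted p 0.530 to 0.949), and those of Hspe1 were 0.34, 0.08 and 0.24 (SE 0.16 to 0.17, adjusted p 0.605 to 0.970). In the last 500 bases 17.3% of Hspd1 windows and 17.4% of Hspe1 windows occurred also in 1 other annotated gene each.

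Across the 9 genes, all of which passed the filter on low counts, a gene was called at an adjusted p under 0.05 with a log2 fold change beyond 0.58. Hspa1b, at 0 to 6 UMIs per library outside ENZ-NONE, passed that filter only through its ENZ-NONE counts, and it is counted below with that limit. In ENZ-NONE vs DNC-NONE 4 of 9 were called higher (Hspa1a, Hspa1b, Hsp90aa1 and Hsp90ab1) and none lower, where 0.425% of the 9882 genes tested were called higher and 0.617% in either direction. In ENZ-NONE vs DNC-INHIB 3 of 9 were called higher (Hspa1a, Hspa1b and Hsp90aa1), with 0.496% of all genes higher and 0.799% in either direction, and vs ENZ-INHIB the same 3 genes, with 0.385% of all genes, all of them higher. Levels in all 3 ENZ-NONE libraries lay above all other 9 libraries for 3 of 9 (Hspa1a, Hspa1b and Hsp90aa1), as they did for 0.729% of all genes. The median log2 fold change of the 9 was 0.90, 0.43 and 0.72 in these 3 comparisons, and over all genes it was 0.00, 0.01 and -0.00. These 3 comparisons share the ENZ-NONE libraries. The 9 genes were chosen with earlier results of these data known, so their counts beside the shares of all genes are a description only.

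**Figure D2:**
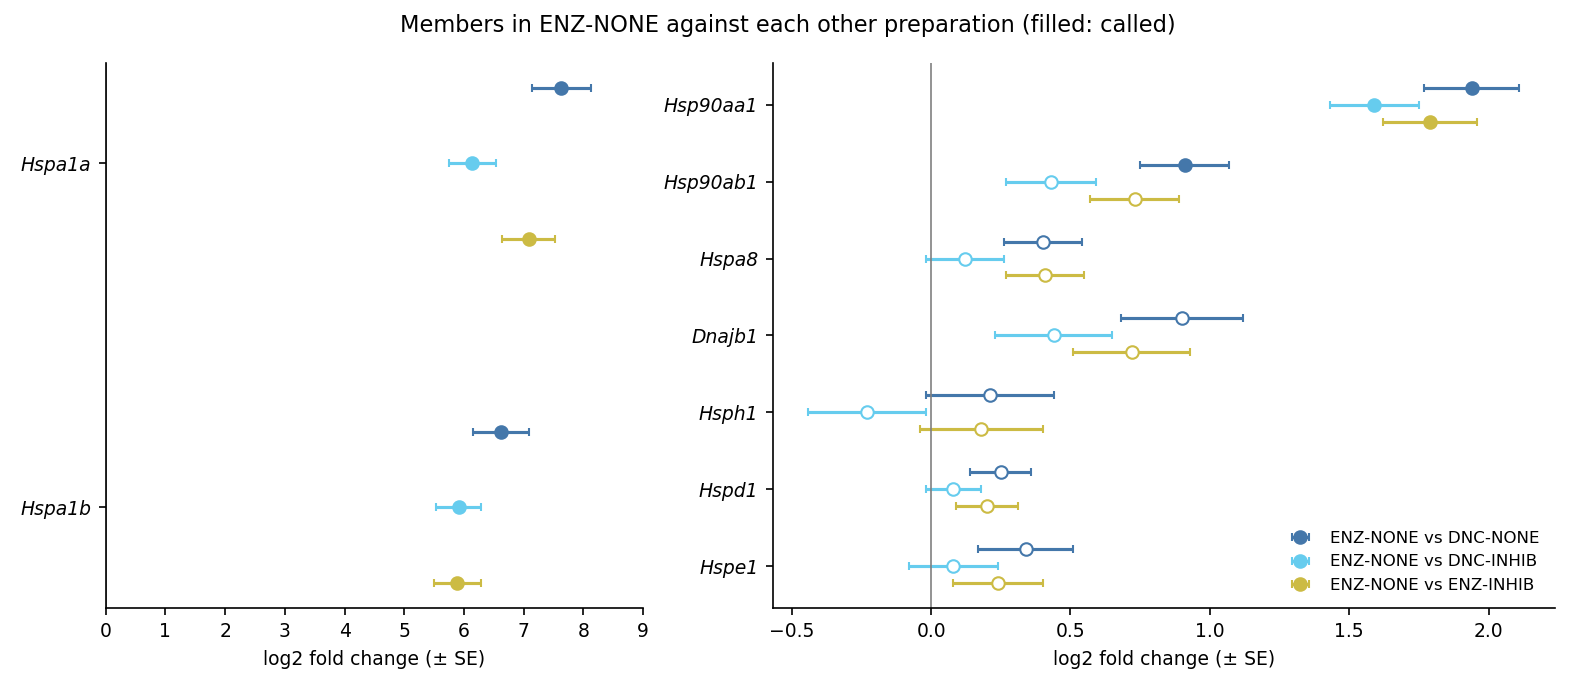
Log2 fold change of each chaperone gene in ENZ-NONE against each other group, with bars of ± 1 SE and filled points where the gene was called, on separate axes for Hspa1a and Hspa1b and for the other 7 genes. Hspa1a, Hspa1b and Hsp90aa1 are called in all 3 comparisons and Hsp90ab1 vs DNC-NONE, and for Hspa8, Dnajb1, Hsph1, Hspd1 and Hspe1 no point is filled.

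Among the preparations kept cold or with inhibitors, none of the 9 was called. In DNC-NONE vs DNC-INHIB all 9 log2 fold changes were negative, with a median of -0.44 against 0.00 over all genes, and 0 were called by edgeR (1 of 9 at an unadjusted p under 0.05; 0 called and 3 of 9 unadjusted by DESeq2), where 0% of all genes were called. Of all 9882 genes, 466 (4.72%) had an unadjusted p under 0.05 there by edgeR and 179 by DESeq2. Hsp90ab1 had the lowest unadjusted p there (log2 fold change -0.48, SE 0.16, adjusted p 0.893). With no filter on low counts 1 of the 9, Hspa1a, was called, as were 86 of 16399 genes. In ENZ-INHIB vs DNC-INHIB edgeR called 0 of 9, with 0 at an unadjusted p under 0.05 (0 called and 1 unadjusted by DESeq2), where 0.152% of all genes were called and 8.39% had an unadjusted p under 0.05 by edgeR. In ENZ-INHIB vs DNC-NONE edgeR called 0 of 9, with 0 at an unadjusted p under 0.05 (0 and 0 by DESeq2), where 0.101% of all genes were called and 1037 genes had an unadjusted p under 0.05 by edgeR.

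Whether the effect of digestion differed with and without inhibitors was tested as an interaction, the difference between ENZ-NONE vs DNC-NONE and ENZ-INHIB vs DNC-INHIB. It was called for 4 of 9 genes, with 0.172% of all genes called. Among the 4 is Hspa1b, which passed the filter on low counts only through its ENZ-NONE counts. The log2 differences were 8.56 for Hspa1a (SE 0.83, adjusted p 3.25e-05), 6.60 for Hspa1b (SE 1.25, adjusted p 0.0327), 2.15 for Hsp90aa1 (SE 0.24, adjusted p 0.000131) and 1.21 for Hsp90ab1 (SE 0.23, adjusted p 0.0354). For the summed pair it was 8.33 (SE 0.77, adjusted p 1.71e-05). Hsp90aa1 alone of the 4 stayed called in the robust fit, in which the adjusted p of the summed pair was 0.0722, and 2 of 9 were called (Hsp90aa1 and Hspa1a) without DNC-NONE replicate 2 or 3, DNC-INHIB replicate 4 or 5 or ENZ-INHIB replicate 2. Without DNC-NONE replicate 1 the difference for the summed pair was 9.28 and for Hspa1a 10.05. The remaining 5 genes had positive differences from 0.37 (Hspd1) to 1.18 (Dnajb1, adjusted p 0.519) that did not pass.

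Per cell, the pair was found in a large minority of ENZ-NONE cells and was rare elsewhere. After thinning, a UMI of Hspa1a or Hspa1b was found in 38.9% of 1570 cells in ENZ-NONE replicate 4 (95% exact binomial interval 36.4 to 41.3), 21.0% of 1118 in replicate 5 (18.7 to 23.5) and 37.1% of 1748 in replicate 6 (34.9 to 39.4), for a mean of 32.3% ± 9.84 (SD, n = 3). The other 9 libraries ranged from 0.234% in DNC-NONE replicate 2 to 1.79% in DNC-INHIB replicate 5, with a mean of 0.823% ± 0.534 (SD, n = 9). Without thinning the ENZ-NONE libraries held the pair in 42.7%, 24% and 43.3% of cells, at median depths of 1319, 1298 and 1484 UMIs, and the other 9 in at most 2.46%.

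The difference in mean share was 31.5 percentage points (exact permutation test over libraries, two-sided, p = 0.00909, the smallest of its 220 splits), and splits kept within batch gave p = 0.0222 (90 splits). Each ENZ-NONE library was higher than each of the others. Group against group, 3 libraries against 3 cannot give an exact p below 0.10, and each comparison with ENZ-NONE gave that value. Among the other groups the differences were -0.793 points for DNC-NONE minus DNC-INHIB, -0.526 for ENZ-INHIB minus DNC-INHIB and 0.267 for ENZ-INHIB minus DNC-NONE (exact permutation p = 0.200, 0.300 and 0.200). The ENZ-NONE mean in batch 1 was 29.9% against 0.368% to 1.49% for the other groups, and in batch 2 it was 37.1% against 0.358% to 1.15%. No sorted cell type here is known to lack these genes, so shares as low as those outside ENZ-NONE cannot be told apart from free RNA in the droplets.

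Positive cells in ENZ-NONE often held several pair UMIs. Thinned cells with the pair had a mean of 2.84, 2.05 and 2.96 UMIs of it in replicates 4, 5 and 6, and 62.5%, 46.4% and 64.4% of them had at least 2. The tenth of cells with the highest counts held 54.5%, 70.7% and 55.6% of all pair UMIs in these libraries, and the highest count in a cell before thinning was 26, 12 and 21. In the other 9 libraries the highest count in a cell was 1 to 3.

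**Figure D3:**
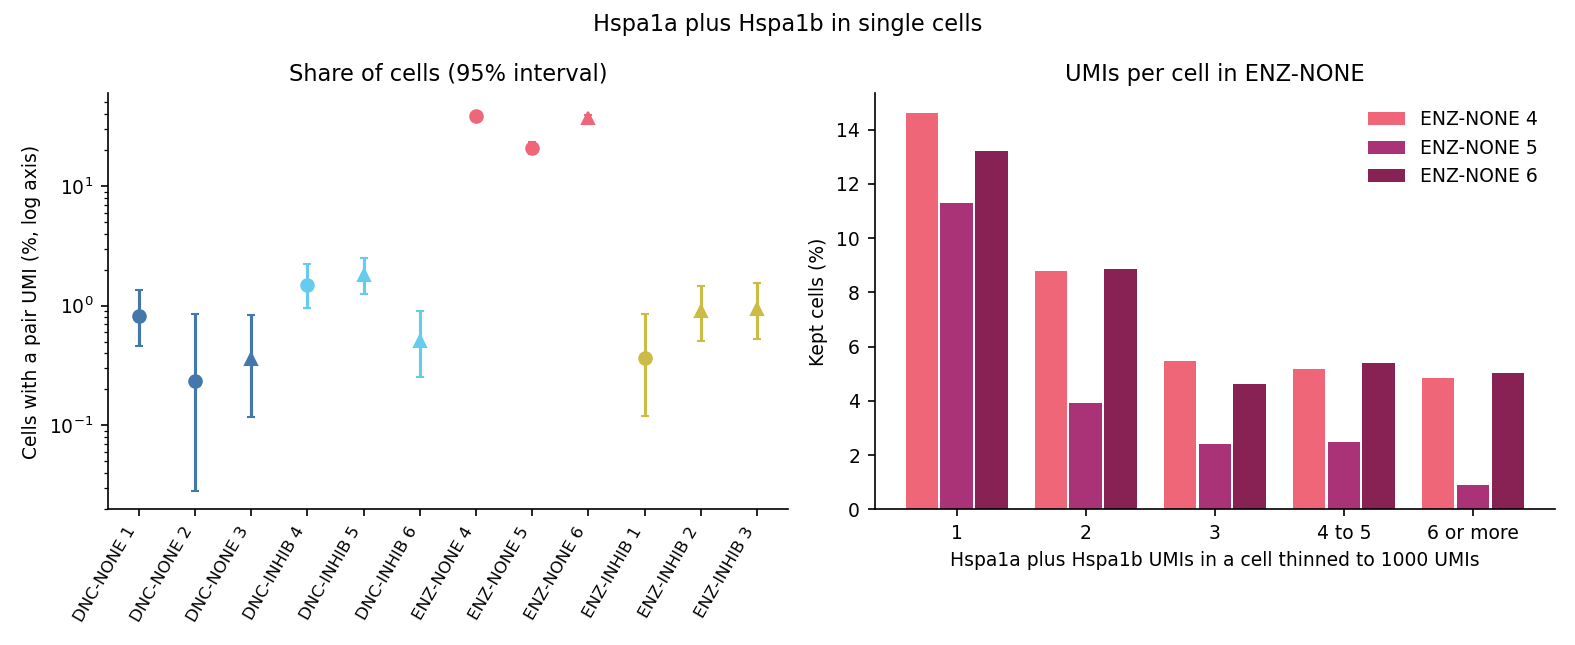
Left, percentage of cells with an Hspa1a or Hspa1b UMI after thinning to 1000 UMIs per cell, by library on a log axis, with 95% exact binomial intervals and triangles for batch 2. Right, percentage of kept cells with 1, 2, 3, 4 to 5 and 6 or more pair UMIs in the 3 ENZ-NONE libraries. The ENZ-NONE libraries stand at 21.0% to 38.9% and the others at 0.234% to 1.79%, and 4.84%, 0.894% and 5.03% of cells in ENZ-NONE replicates 4, 5 and 6 held 6 or more.

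The 9 genes together took 0.509% ± 0.103 (SD, n = 3) of kept UMIs in ENZ-NONE. The other averages were 0.294% ± 0.0476 for ENZ-INHIB, 0.359% ± 0.0432 for DNC-INHIB and 0.287% ± 0.0351 for DNC-NONE. The pair made up 20%, 10.9% and 17.8% of these chaperone UMIs in ENZ-NONE replicates 4, 5 and 6, and at most 0.456% in any other library. The mean number of the 9 genes detected per thinned cell was 2.42 ± 0.286 (SD, n = 3) in ENZ-NONE, with 1.68 ± 0.193 for ENZ-INHIB, 1.86 ± 0.123 for DNC-INHIB and 1.59 ± 0.135 for DNC-NONE. Over the 7 genes other than the pair it was 2.05 ± 0.176 in ENZ-NONE, 1.67 ± 0.193 in ENZ-INHIB, 1.85 ± 0.123 in DNC-INHIB and 1.59 ± 0.135 in DNC-NONE.

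Within each ENZ-NONE library, cells with a pair UMI also held more Hsp90aa1, Hsp90ab1 and Dnajb1, as a description of cells that share a library. Hsp90aa1 stood at 78.7 UMIs per 100 thinned cells with the pair and 31.9 per 100 cells without it in replicate 4, at 55.7 and 23.7 in replicate 5, and at 80.4 and 37.7 in replicate 6. Hsp90ab1 stood at 132 and 69.3, 98.3 and 65.9, and 124 and 89.9 UMIs per 100 cells in the same order. Dnajb1 stood at 26.1 and 11.2, 15.3 and 8.27, and 21.4 and 12.1. For Hspa8 the values were close by comparison, at 259 and 231, 214 and 204, and 307 and 269, and for Hspd1 they differed in direction, at 11.5 and 9.38, 11.1 and 12.8, and 13.4 and 12.3. Cells without the pair in ENZ-NONE still held 23.7 to 37.7 Hsp90aa1 UMIs per 100 cells, where all cells of the other 9 libraries held 9.96 to 15.2.

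**Figure D4:**
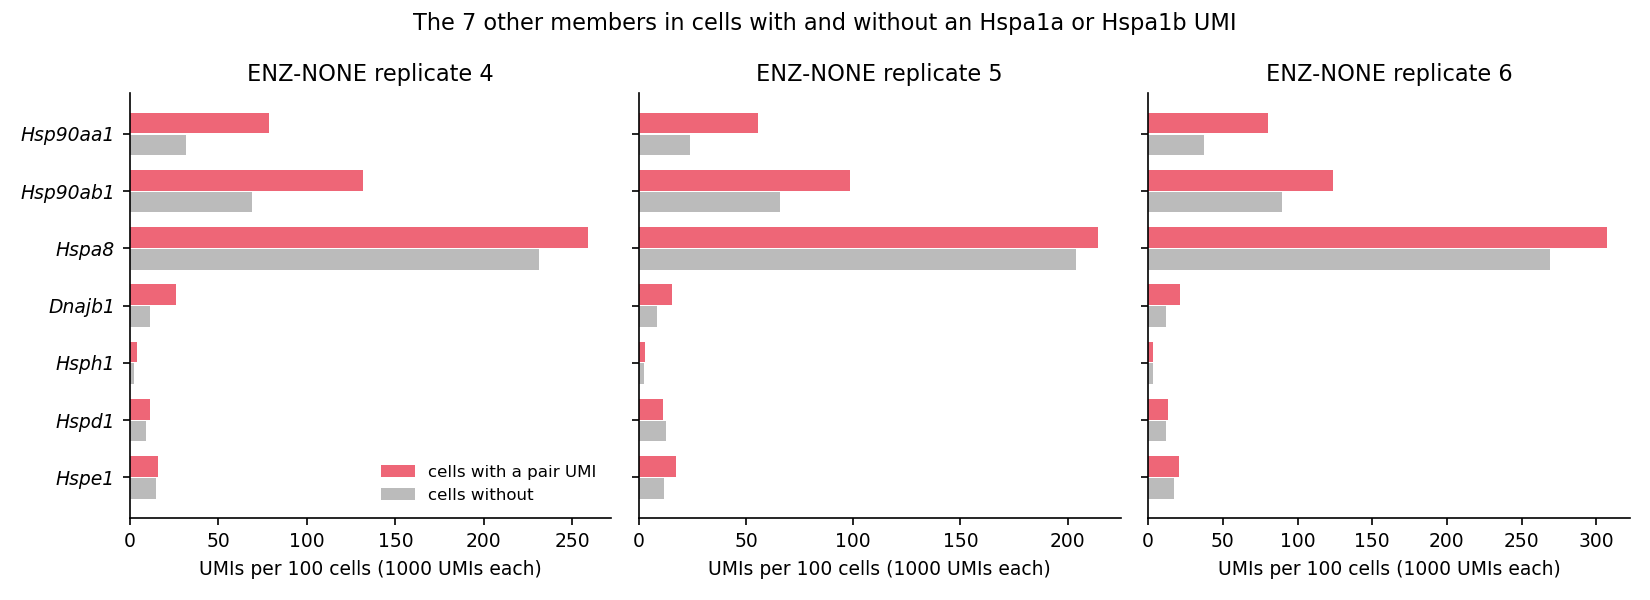
UMIs per 100 cells, each thinned to 1000 UMIs, for the 7 genes other than the pair, in cells with (red) and without (grey) an Hspa1a or Hspa1b UMI, with 1 panel for each ENZ-NONE library and axes from 0. Hsp90aa1 stands at 78.7 against 31.9, 55.7 against 23.7 and 80.4 against 37.7 in replicates 4, 5 and 6, and Hspa8 at 259 against 231, 214 against 204 and 307 against 269.

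Fos and Dusp1, immediate early genes that are induced within minutes of a stimulus, were found together in 5.10%, 5.10% and 21.1% of cells in ENZ-NONE replicates 4, 5 and 6. The pair was found in 61.3% of these cells and 37.7% of the rest in replicate 4, in 17.5% and 21.2% in replicate 5, and in 44.7% and 35.1% in replicate 6. The direction thus differed in replicate 5, which rests on 57 cells with both genes, where replicates 4 and 6 have 80 and 369. Whether it differed beyond counting error was not tested.

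The pair was not confined to 1 cluster of cells in ENZ-NONE. In the microglia-like clusters, a class defined with the processing below, it stood at 862 CPM ± 380 (SD, n = 3) over 4215 ENZ-NONE cells. The other averages were 5.97 ± 2.21 for ENZ-INHIB, 13 ± 7.31 for DNC-INHIB and 3.34 ± 2.88 for DNC-NONE. A cluster led by Fos and Dusp1 belongs to that class and held 22.4% of ENZ-NONE cells, most of them from replicate 6, and 3.61% to 7.85% of the cells of the other groups. Inside it the pair stood at 1005 CPM ± 465 (SD, n = 3) in ENZ-NONE, and in the rest of the class at 791 ± 329. The next 2 clusters fall outside that class by their leading genes only, since 10 and 9 microglia markers were detected in them. In a cluster led by the interferon-induced gene Ifit3 the pair stood at 981, 511 and 386 CPM in ENZ-NONE replicates 4, 5 and 6, which rest on 33 to 38 cells each. In a cluster led by H2-Aa and Cd74, genes of antigen presentation, it stood at 2182, 575 and 470 CPM, from 28, 19 and 62 cells. The highest value outside ENZ-NONE in these 2 clusters was 54.3 CPM, from 3 UMIs.

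**Figure D5:**
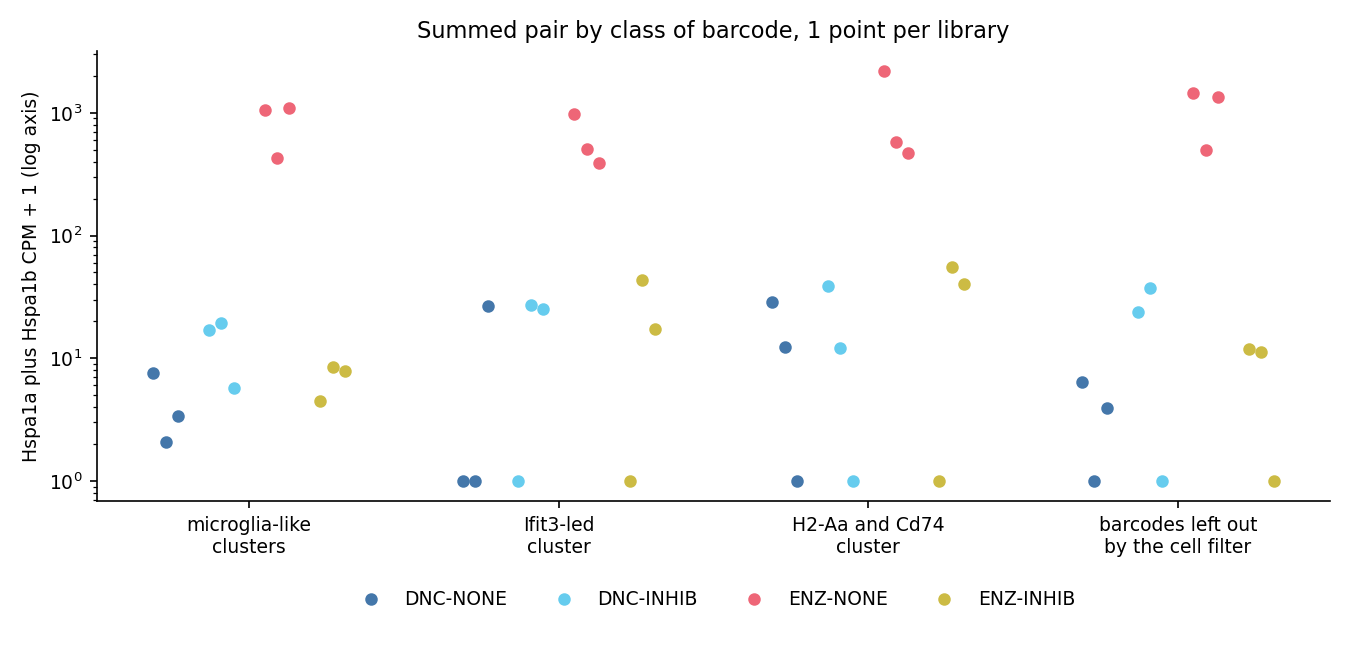
Summed Hspa1a and Hspa1b in CPM plus 1 on a log axis, 1 point per library, in the microglia-like clusters, the cluster led by Ifit3, the cluster led by H2-Aa and Cd74, and the barcodes below the cell filter. The 3 ENZ-NONE points lie between 386 and 2182 CPM in every class, and the points of the other 3 groups lie at 54.3 CPM or below.

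Hsp90aa1 in ENZ-NONE lay above all other libraries in the microglia-like clusters and the cluster led by Ifit3. In the microglia-like clusters it stood at 450 CPM ± 120 (SD, n = 3) in ENZ-NONE and between 104 and 159 CPM in the other 9 libraries, and in the cluster led by Ifit3 at 390 ± 61.7 in ENZ-NONE and between 65.4 and 241 in the others. In the cluster led by H2-Aa and Cd74 the ENZ-NONE libraries spanned 172 to 393 CPM and overlapped each other group. DNC-INHIB spanned 171 to 210 CPM there, DNC-NONE 79.6 to 179 and ENZ-INHIB 58.7 to 217.

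Other genes of the chaperone network mostly did not pass, as was so for most genes tested. Of a list of 69 genes (further HSP70, J-domain and HSP90 genes, small heat shock proteins, cochaperones, the TRiC chaperonin, heat shock factors and others), 58 were tested. In ENZ-NONE vs DNC-NONE and vs DNC-INHIB 0 were called higher and 1 lower (Dnajb4), and vs ENZ-INHIB 0 were called in either direction, by edgeR. Of all genes, 0.617%, 0.799% and 0.385% were called in either direction in these 3 comparisons. Unadjusted p was under 0.05 for 6, 3 and 4 of the 58, where it was for 8.60%, 9.55% and 5.22% of all genes, and the list's median log2 fold change was 0.04, -0.01 and 0.08, against 0.00, 0.01 and -0.00 over all genes. Hsf1, the gene of the heat shock factor itself, averaged 60.7 CPM ± 3.35 (SD, n = 3) in ENZ-NONE, 55.4 ± 1.36 in ENZ-INHIB, 60 ± 5.44 in DNC-INHIB and 61.4 ± 6.15 in DNC-NONE. Its 3 log2 fold changes in ENZ-NONE were between 0.00 and 0.16 (SE 0.11, adjusted p 0.955 to 1.000).

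Dnajb4, a J-domain partner of HSP70, fell after digestion with and without inhibitors. It stood at 33.1, 28.0 and 28.6 CPM in ENZ-NONE replicates 4, 5 and 6 and at 31.8, 29.8 and 33.9 in ENZ-INHIB replicates 1, 2 and 3, against 52.0, 43.4 and 47.2 in DNC-NONE and 51.4, 51.3 and 52.6 in DNC-INHIB. Every digested library lay below every Dounce library. Its log2 fold change was -0.64 in ENZ-NONE vs DNC-NONE (SE 0.12, adjusted p 0.0151), -0.75 in ENZ-NONE vs DNC-INHIB (SE 0.12, adjusted p 0.00157), -0.69 in ENZ-INHIB vs DNC-INHIB (SE 0.11, adjusted p 0.0156), -0.59 in ENZ-INHIB vs DNC-NONE (SE 0.12, adjusted p 0.0601) and -0.05 in ENZ-NONE vs ENZ-INHIB (SE 0.13, adjusted p 0.993). Over its alternatives the first of these had an adjusted p of 0.00602 to 0.143. It was lost, among others, in DESeq2 (adjusted p 0.143), with only the 2 groups in the fit (0.130) and without DNC-NONE replicate 1 or 3 or ENZ-NONE replicate 5. The third had an adjusted p of 0.00071 to 0.143. It was lost in DESeq2 (adjusted p 0.0782), with cells thinned to 1000 UMIs (0.0745) and without DNC-INHIB replicate 5 or 6 or ENZ-INHIB replicate 1 or 2.

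Over the 12 libraries the genes outside the 9 whose log2(CPM + 1) followed the summed pair most closely were Hist1h2bc (Pearson r 0.976), Rgs1 (0.953), Ccl4 (0.947), Hist1h1c (0.939) and Sat1 (0.938), given as a description since the libraries fall into 1 high and 3 low groups. Of the 9 genes, Hsp90aa1 followed the pair with r 0.987, Hsp90ab1 with 0.870, Dnajb1 with 0.771 and Hspa8 with 0.677, and Hsph1 was lowest at 0.257. The nearest gene, the histone gene Hist1h2bc, stood at 254 CPM ± 14.1 (SD, n = 3) in ENZ-NONE and at 85.8 ± 13.5, 92.4 ± 16.1 and 84.2 ± 3.26 in ENZ-INHIB, DNC-INHIB and DNC-NONE.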

How the data were processed

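The authors deposited, for each of 12 libraries (10x Genomics 3' version 2 kit), raw UMI counts per gene and cell barcode. Their processing notes name bcl2fastq, Cell Ranger 3.0.0, Seurat and the builds mm10 and GRCm38. Reads that fit several genes equally are not counted by Cell Ranger by default.

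The cell filter asked for 500 genes or more and 1000 UMIs or more per barcode, with mitochondrial UMIs not above 10%. A marker rule then removed 4 of 18830 cells as doublets, so few that most doublets are likely to remain. Kept cells were summed per library (2118143 to 3654465 UMIs deposited per library) and tested with edgeR 4.0.16 in R 4.3.3 (TMM, filterByExpr, quasi-likelihood F test, not robust, all 12 libraries in the fit), also with Hspa1a and Hspa1b summed as 1 feature. Called genes had a Benjamini-Hochberg adjusted p under 0.05 over all 9882 genes and a log2 fold change beyond 0.58. P-values rest on 3 animals per group.

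Shares of cells were compared after random thinning of each kept cell to 1000 UMIs, which left out no kept cell, with exact permutation tests (scipy 1.17.1). Cells were clustered with scanpy 1.11.5 by the Leiden method. The microglia-like class is the clusters with at least 9 of 10 microglia markers detected and no marker of another list among the leading genes, a rule written after the clusters were seen. The motif search was also chosen after the promoters were read. Promoters came from the RefSeq table of GRCm38.p6. The edgeR fit was checked on simulated counts, with the same spread set for every gene.

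Named genes are the 9 members and their summed pair, genes of the network list called in any comparison of ENZ-NONE, Hsf1, the 5 genes most like the pair, and Fos and Dusp1. One class of the list is not reported here. The members and lists were chosen with earlier results of these data known. Alternatives were DESeq2 1.42.0, other size factors, no filter on low counts, batch as a covariate, fewer groups in the fit, other cell sets and depths, replicate blocks and each library left out. A robust fit was added after the data were seen. Replicates of a group differed beyond sampling noise (chi-square per degree of freedom 1.60 to 6.50).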

Additional observations from a re-analysis of the deposited data

Results flagged for a closer look

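For 5 measures of these genes the effect of digestion without inhibitors differed from that with inhibitors by the interaction test (edgeR, quasi-likelihood, adjusted over all genes). The log2 difference was 8.56 for Hspa1a, 6.60 for Hspa1b, 8.33 for the summed pair, 2.15 for Hsp90aa1 and 1.21 for Hsp90ab1. For Hspa1b, which has 23 UMIs in the 9 libraries outside ENZ-NONE, the adjusted p rose to 0.974 without DNC-INHIB replicate 5 (log2 difference 5.90) and to 0.136 in the robust fit. The Hspa1b call was also lost with any other DNC-INHIB library, any DNC-NONE library or ENZ-INHIB replicate 2 or 3 left out. It was lost without the highest Scrublet scores too (adjusted p 0.0906). For Hsp90ab1 the adjusted p rose to 0.18 without DNC-INHIB replicate 5 and to 0.917 in the robust fit. Its call was also lost with all deposited barcodes (adjusted p 0.0583). The same held without DNC-NONE replicate 2 or 3, DNC-INHIB replicate 4, ENZ-NONE replicate 4 or ENZ-INHIB replicate 1 or 2.

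Barcodes below the cell filter entered the fits above only in the alternative with all deposited barcodes. These barcodes also held the pair in ENZ-NONE, at 1462, 496 and 1354 CPM in replicates 4, 5 and 6 (mean 1104.0, SD 529). In the other 9 libraries these barcodes stood between 0 and 36.3 CPM. Whether free RNA takes part in these counts was not tested.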

How the results depend on the processing

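Directions and calls of the summed pair in the 3 comparisons of ENZ-NONE were the same under every alternative run, with log2 fold changes of 7.25 to 8.47 vs DNC-NONE, 5.68 to 6.48 vs DNC-INHIB and 6.65 to 7.26 vs ENZ-INHIB. Its difference in share of cells was 31.5 points, and 35.6 without thinning, 37.4 in cells thinned to 2000 UMIs (33 to 224 cells per library), 23.6 under a looser cell filter, 19.3 for cells with at least 2 UMIs, 31.7 in microglia-like clusters and 31.3 without the highest Scrublet scores. With each library left out it was 28.3 to 37.2 points (exact permutation p 0.0121 to 0.0364). With no filter on low counts the summed pair was called in DNC-NONE vs DNC-INHIB (-1.41). There 1 of the 9 genes was called, as were 86 of all 16399 genes. In ENZ-NONE vs ENZ-INHIB 5 of the 9 were called with no filter, as were 141 of all 16399 genes, where the main fit called 38 of 9882. With each library left out in turn, 3 to 5 of the 9 were called vs DNC-NONE, 3 vs DNC-INHIB, 3 to 5 vs ENZ-INHIB and 2 to 5 in the interaction. Counts over all genes are not given for these fits. In the robust fit 1 of the 9 was called in the interaction, as were 6 of 9882 genes. Without ENZ-NONE replicate 6 the log2 fold change reversed for 4 uncalled genes, and with each library left out it was -0.02 to 0.24 for Hspa8, -0.11 to 0.21 for Hspe1 and -0.00484 to 0.17 for Hspd1 vs DNC-INHIB, and -0.02 to 0.31 for Hsph1 vs ENZ-INHIB. The cause was not tested.

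Replicate numbers showed no clear pairing of the samples (correlations of same-numbered deviations -0.0812 to 0.155), which 3 libraries per group cannot settle. With the replicate number as a block the summed pair stood at 6.03 in ENZ-NONE vs DNC-INHIB with 3 of 9 genes called, and at 0.56 in ENZ-INHIB vs DNC-NONE with 0 called. These fits held only the 2 groups compared. All genes called were 94 and 77 with the block, and 77 and 33 in fits of the same 2 groups without it. With all 12 libraries in the fit they were 79 and 10. The block changed no call of the 9 genes in these 2 comparisons, the only ones whose groups share numbers. Hspa1b outside ENZ-NONE rests on 0 to 6 UMIs per library, so its fold changes depend on few molecules.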
